A study of Mus musculus with 12 samples.

Results

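Macrophages grown from the bone marrow of Commd1 knockout mice were compared after 24 h of lipopolysaccharide (LPS) with untreated cells of the same mice. The comparison rests on 4 of the 12 arrays of the study, chosen by the genotype and treatment in the sample labels: 2 untreated knockout cultures and 2 knockout cultures after 24 h of LPS, 1 of each from mouse 3 and mouse 4. In every group, controls included, marrow of the long bones had been grown for 10 days in RPMI medium with fetal calf serum and 20 ng/ml GM-CSF, a growth factor that drives myeloid differentiation. LPS from Escherichia coli O26:B6 was then given at 10 ng/ml, or not at all. The cells of each mouse were divided between the untreated, 3 h and 24 h cultures. The remaining 8 arrays hold the knockout cultures after 3 h and the cultures of 2 wildtype mice, mouse 1 and mouse 2, at the same 3 times. The deleted part of Commd1, the cells in which it was deleted, and the strain, age and sex of the mice are not given in the sources used here.

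LPS, a component of the outer membrane of Gram-negative bacteria, is sensed on macrophages by Toll-like receptor 4 with the co-receptors CD14 and MD-2. An early branch of signalling through MyD88 activates NF-kB and MAP kinases and switches on cytokine, chemokine and feedback genes. A branch through TRIF activates IRF3 and the interferon beta gene, and secreted interferon then turns on antiviral genes through a complex of STAT factors and IRF9. COMMD1 belongs to the endosomal CCC complex, through which membrane proteins are recycled to the cell surface. Work in other cells has tied it to copper export and to the degradation of RelA, an NF-kB subunit. At 24 h the early wave is usually past and later programmes of metabolism, antigen presentation and cell cycle can be read.

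Levels are given on the log2 scale relative to the 75th percentile of each array, so that a level of 0 lies at that percentile and a difference of 1 is a change of 2-fold. Changes are 24 h minus untreated with the standard error (SE) of the fit (n = 2 mice per group). Adjusted p-values come from limma with Benjamini-Hochberg adjustment over all genes, and "rose" and "fell" are used only of genes with an adjusted p under 0.05. Where both arrays of the lower group had a gene at background, the change is a bound and is written as at least so many fold. Of all probes 69.3% and 65.7% were well above background in untreated knockout cells of mice 3 and 4, and 59.6% and 62.8% at 24 h. The mice correlated at r = 0.996 across genes when untreated and at r = 0.994 at 24 h. All untreated samples lay on 1 slide and all 24 h samples on another, so slide and treatment cannot be told apart in any result here. The slope of signal against amount over the control transcripts added to each sample differed in the same way, at 0.794 and 0.797 on the untreated knockout arrays and 0.869 and 0.842 at 24 h. In a culture as a whole, fewer cells that express a gene and less RNA of it per cell cannot be told apart.

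The targeted gene was checked first. Commd1 (probe at chr11:22856412-22856471, mm9) had levels of -0.50 and -0.01 in untreated knockout cells of mice 3 and 4, -0.48 and 0.07 after 3 h, and -0.41 and 0.06 after 24 h. In wildtype cells it stood at 2.72 and 2.79 untreated and 2.89 and 2.85 at 24 h, above every knockout array. The probe remained well above background in the knockout, and whether it lies in the deleted part is not given in the sources used here. Within the knockout LPS left Commd1 at a change of 0.08 ± 0.23 (limma adjusted p = 0.79).

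Of 22990 genes tested, 5980 rose (26.0%) and 7248 fell (31.5%) between the untreated and the 24 h knockout cells, and 9762 did not pass. The counts of each gene list below stand beside these shares of all genes, and a list near them shows nothing about the list. By the fitted change, 2231 genes that rose (9.70%) and 3052 that fell (13.3%) changed at least 2-fold, and 225 and 88 at least 16-fold. These counts, and the 2-fold and 16-fold counts and shares below, can include genes at background that have only a bound or no fold. Itga8, for example, is among the falls of at least 16-fold, although its bound is 10.1-fold. The median over all genes was -0.07, with -0.12 in mouse 3 and -0.01 in mouse 4. All 13138 called genes that were measured in both mice had moved the same way in both. Of the genes that rose, 222 came up from below background, and of those that fell, 939 ended below background. Another 896 genes were below background in both groups, and the 107 rises and 95 falls called among them have no fold. The split depended on the scale: 45.2% of the calls were rises, against 35.7% (4882 higher, 8793 lower) when arrays were scaled on the probes detected on all of them and 64.6% (10318 higher, 5642 lower) with normexp background correction. These scales moved the median of all genes to -0.20 and 0.22.

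**Figure D1:**
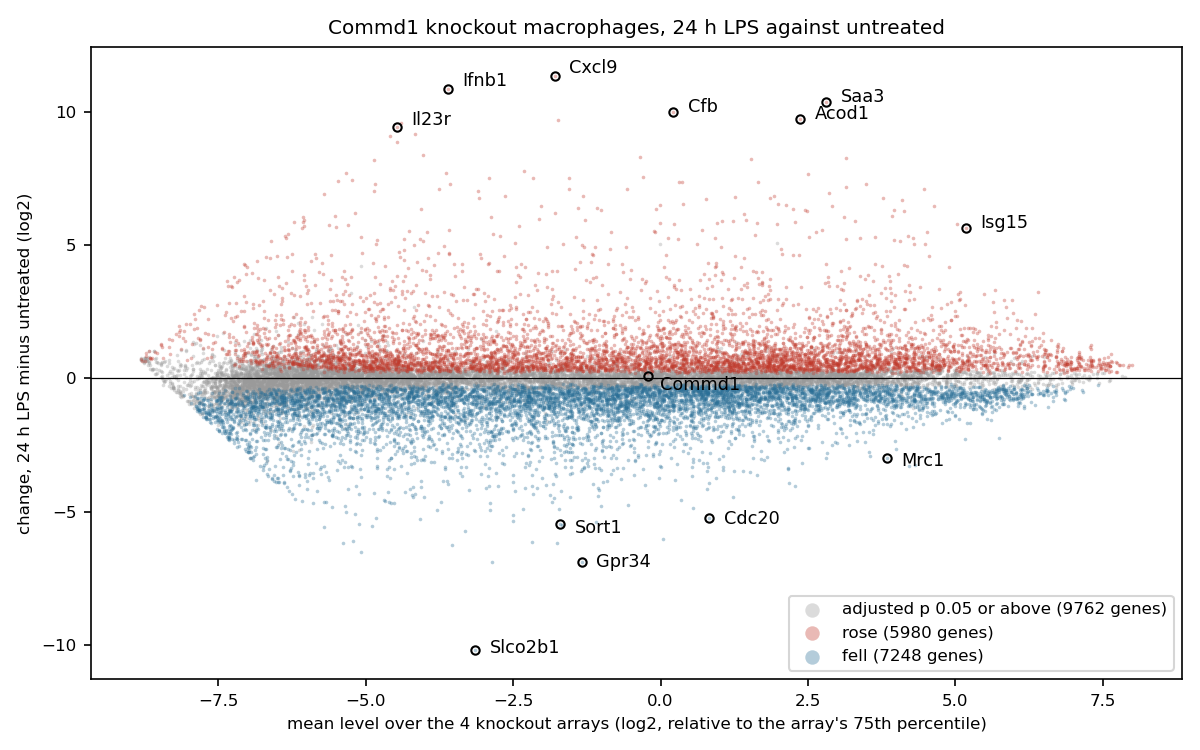
Change at 24 h (log2, vertical axis) against the mean level over the knockout untreated and 24 h arrays (log2 relative to the 75th percentile, horizontal axis) for each gene tested. Red points are the 5980 genes that rose, blue points the 7248 that fell and grey points the 9762 that did not pass. The chemokine gene Cxcl9 and Ifnb1 lie highest, Slco2b1 lies lowest, and Commd1 sits close to 0.

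The genes with the largest rises encoded a chemokine, interferon beta, acute-phase proteins, a complement factor and an enzyme of itaconate synthesis. Cxcl9 (probe at chr5:92752191-92752250, mm9), a chemokine gene that interferon gamma is known to induce, had levels of -6.88 and -8.07 in untreated cells and 3.64 and 4.12 at 24 h. Ifnb1 (chr4:88168023-88168082), which encodes interferon beta, went from -9.29 and -8.80, below background in both mice, to 1.91 and 1.74. Saa3 (chr7:53970389-53970448), an acute-phase gene of macrophages, went from -2.19 and -2.59 to 7.91 and 8.10. In all of them both 24 h samples were high and both untreated samples low, with no overlap. The genes were picked for the largest changes with the same direction in both mice, so this separation was largely set by the choice. The Cxcl9 probe was well above background on 1 of the 2 untreated arrays, and the other probe of the gene gave a change of 8.63. Cxcl9 rose by 11.36 ± 0.76 (adjusted p = 5.8e-06), Saa3 by 10.39 ± 0.27 (adjusted p = 5.7e-08) and Ifnb1 at least 419-fold (adjusted p = 3.3e-08), all with limma.

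Next came Cfb, the factor B gene of the alternative complement pathway, with a rise of 9.98 ± 0.21, and Acod1, whose enzyme makes itaconate, with 9.73 ± 0.12. Acod1 had levels of -2.63 and -2.38 untreated and 7.11 and 7.34 at 24 h, so the mice differed by far less than the change. The Schlafen genes Slfn4 and Slfn1 rose by 9.71 ± 0.19 and at least 159-fold, and Ifit1bl1, a relative of the antiviral Ifit genes, by 8.22 ± 0.20. Il23r, the receptor subunit for interleukin-23, stood at -9.29 and -9.07 untreated and at 0.14 and 0.33 at 24 h, a rise of at least 139-fold. Saa1 rose by 8.25 ± 0.14, the serine protease inhibitor genes Serpina3g and Serpina3f by 8.31 ± 0.22 and 7.77 ± 0.29. Lrrc4, Ly6f and Tarm1, which encodes a receptor of myeloid cells, rose at least 132-fold, 137-fold and 42.0-fold from below background. Saa1 and Saa2, Serpina3f and Serpina3g, Tgtp1 and Tgtp2, and the Ifit, Slfn, Gbp and H2 genes have close relatives in the mouse, and how far their probes share signal was not tested.

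The largest falls included genes known from tissue macrophages, lipid metabolism and cell division. Slco2b1 (chr7:106806923-106806982), an organic anion transporter gene, had levels of 2.22 and 1.68 untreated and -7.97 and -8.54 at 24 h, below background in both mice and at least 294-fold lower. Gpr34 (chrX:13217863-13217922), which encodes a lysophosphatidylserine receptor known from microglia, went from 2.23 and 1.97 to -4.92 and -4.63. Its fall was 6.87 ± 0.19 (limma adjusted p = 7.5e-08), and the choice of these genes required the same direction in both mice. Aspm, a spindle gene, fell by 6.16 ± 0.25, and F13a1, the coagulation factor XIII subunit of macrophages, fell by 6.14 ± 0.41. Gprc5c fell by 6.01 ± 0.43, Adgre4, an adhesion receptor gene above background on 1 of the 2 arrays at 24 h, fell by 5.73 ± 0.66 and the sorting receptor gene Sort1 fell by 5.46 ± 0.18. Acot1, an acyl-CoA thioesterase, Adam22, Fam83d and Hpgd, which degrades prostaglandins, fell at least 57.2-fold, 21.4-fold, 17.5-fold and 17.1-fold to below background. With the probes used, Samd4, Nrg2 and Itga8 fell at least 15.5-fold, 14.6-fold and 10.1-fold. Frat2, an inhibitor of GSK3, fell by 5.50 ± 0.19 and was already at -5.27 of change after 3 h. The other probes of Nrg2, Frat2, F13a1 and Sort1 gave smaller changes of -1.35, -2.45, -3.17 and -2.70. The 4 probes of Gprc5c ran from -6.01 to -3.84. Those of Slco2b1 and Hpgd lay closer together, with the other probe at -9.44 and -5.7.

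**Figure D2:**
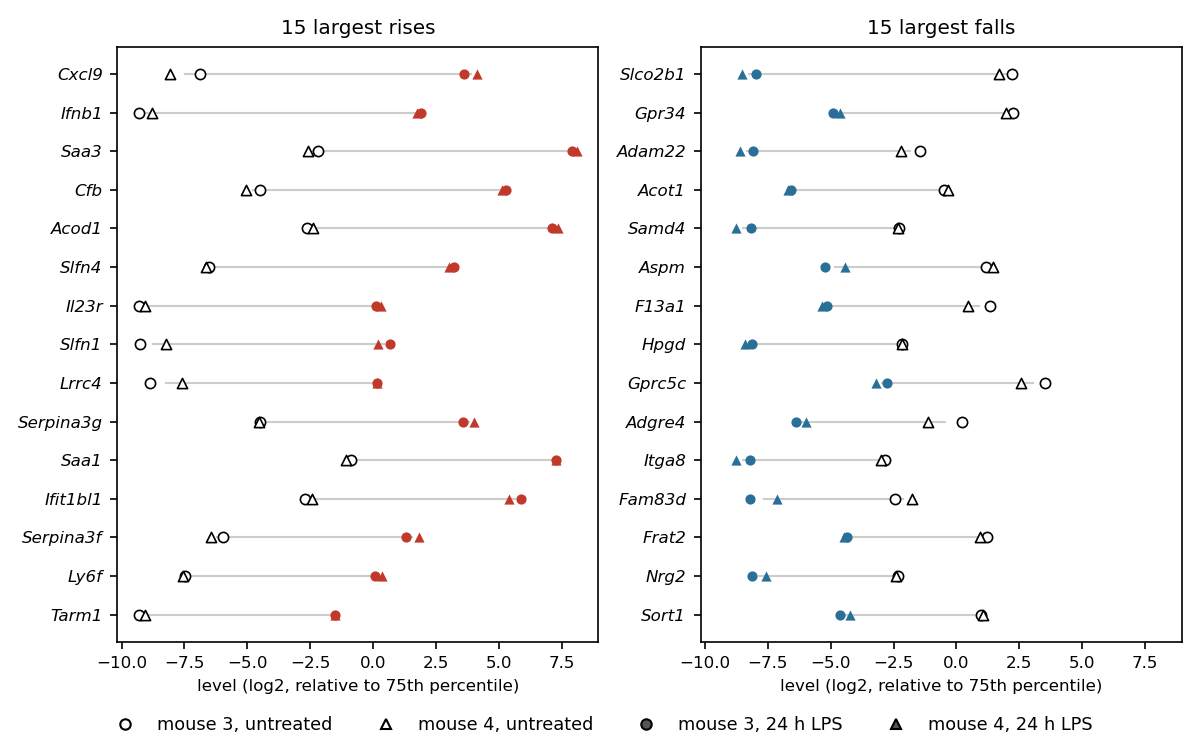
Level on each knockout array (log2 relative to the 75th percentile) for the 15 genes with the largest rises and the 15 with the largest falls. Circles are mouse 3 and triangles mouse 4, open symbols are untreated and filled symbols 24 h. In each of the 30 genes both filled symbols lie on the same side of both open ones.

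Cytokine genes were still above their untreated level at 24 h but had come down from 3 h. Of 22 inflammatory cytokine genes 17 rose and 0 fell, against 26.0% and 31.5% of all genes, with a median change of 1.58 that compares with -0.07 over all genes. At least 2-fold rises were found for 15 of them, against 9.70% of all genes. After Ifnb1 the largest measured rise was that of Il1rn, the interleukin-1 receptor antagonist, with levels of -3.68 and -3.07 untreated and 4.23 and 3.77 at 24 h (7.37 ± 0.26). Tnf went from -3.30 and -2.79 to 1.15 and 1.37, a rise of 4.30 ± 0.26. Il10, the gene of an anti-inflammatory cytokine, rose by 3.78 ± 0.17, Il1a by 5.23 ± 0.18, Tnfsf10 (TRAIL) by 5.04 ± 0.18 and Il15 by 2.41 ± 0.12, and Il6 rose at least 12.3-fold. Il1a was well above background on 1 of the 2 untreated arrays. Il12b and Il12a passed the test while below background in both groups and have no fold.

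Il1b, the interleukin-1 beta gene, was among the cytokine genes that did not pass. Its levels were -0.17 and -1.39 in untreated cells and -0.27 and 0.28 at 24 h, so that mouse 3 went slightly down and the groups overlapped. The change of 0.78 ± 0.35 had an adjusted p of 0.090 (limma). At 3 h the same mice had a mean level of 6.87, 6.74 in the lower of them. Csf2, Csf3, Il23a and Lif also did not pass (changes of 0.71 ± 0.47, 0.75 ± 0.30, 0.51 ± 0.52 and 0.03 ± 0.23), and Csf2, Csf3 and Il23a were below background in both groups.

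Among 21 CC and CXC chemokine genes 12 rose and 2 fell, with a median of 1.22. Ccl5, a chemokine for monocytes and T cells, had levels of 1.20 and 0.60 untreated and 8.02 and 8.02 at 24 h (7.12 ± 0.21). Cxcl10, an interferon-inducible ligand of CXCR3, went from 0.38 and 0.43 to 7.13 and 7.19 (6.76 ± 0.16). Ccl7, Ccl12, Ccl2 and Ccl8 rose by 7.66 ± 0.48, 6.49 ± 0.30, 6.48 ± 0.47 and 5.90 ± 0.21. Cxcl11, another ligand of CXCR3, did not pass (0.05 ± 0.09), nor did Ccl22, which was below background in both groups. Of the neutrophil chemokine genes, Cxcl1, Cxcl2 and Cxcl5 had changes of -0.54 ± 0.30, -0.03 ± 0.23 and -0.34 ± 0.49 and did not pass. Cxcl3, counted among the 12 rises, passed while below background in both groups and has no fold. With normexp background correction Cxcl1 and Cxcl5 rose (0.34 and 0.50, limma adjusted p = 0.014 and 0.0083), and on the deposited value table Cxcl5 rose (0.51, limma adjusted p = 0.025). Cxcl11 fell with quantile normalization (-0.34) and with levels divided by the spike-in slope (-0.44). Ccl24, an eosinophil chemokine, fell by 0.68 ± 0.19 and Ccl6 fell by 0.42 ± 0.09. Ccl24 did not pass without mouse 3's untreated array (-0.57) or mouse 4's 24 h array (-0.60).

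The promoters of Ifnb1 and Cxcl10 are shown as those of the cytokine and chemokine genes with the largest rise among the genes whose window held a kappaB site or an interferon-stimulated response element (ISRE) core. The sequences are the 250 bases before the RefSeq start (GRCm38.p6, both on the minus strand), at chr4:88522795-88523044 for Ifnb1 and chr5:92348890-92349139 for Cxcl10. Capitals mark a kappaB site at -116 to -107 in Ifnb1, and in Cxcl10 an ISRE core at -213 to -204 and kappaB sites at -159 to -150 and -103 to -94.
Ifnb1: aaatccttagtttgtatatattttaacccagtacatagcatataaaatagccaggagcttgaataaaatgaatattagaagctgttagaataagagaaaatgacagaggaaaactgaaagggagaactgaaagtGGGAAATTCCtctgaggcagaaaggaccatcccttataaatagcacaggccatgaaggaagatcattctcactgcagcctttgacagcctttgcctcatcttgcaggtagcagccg
Cxcl10: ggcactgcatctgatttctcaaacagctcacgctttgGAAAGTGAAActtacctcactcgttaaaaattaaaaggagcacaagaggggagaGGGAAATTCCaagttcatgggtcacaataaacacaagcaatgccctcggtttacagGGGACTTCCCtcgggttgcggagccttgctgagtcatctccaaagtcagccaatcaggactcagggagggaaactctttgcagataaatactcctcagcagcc
Motifs were searched on both strands of the RefSeq promoter windows of 300 bases (250 before to 50 after the start), with GAAANNGAAA for the ISRE core and the usual consensus for the kappaB site. A kappaB site was found in 35.7% of the windows of the chemokine list (14 genes), 22.2% of the cytokine list (15 genes) and 41.9% of the NF-kB list below (23 genes), against 4.5% of all 32851 windows. It stood in 6.87% of the windows of genes that rose at least 2-fold and 4.74% of those that fell at least 2-fold. Among the windows of genes tested the share was 5.10%. A match describes the letters and does not show that a factor binds.

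Of 27 genes of NF-kB subunits and feedback inhibitors 17 rose and 4 fell, with a median of 0.50. Of the feedback inhibitor genes, Tnfaip3 (A20) went from 0.97 and 0.75 to 3.45 and 3.78 (2.76 ± 0.15), Nfkbia rose by 1.62 ± 0.11, Nfkbie by 2.43 ± 0.12, Tnip3 by 3.40 ± 0.18 and Tnip1 by 1.10 ± 0.10. Nfkbid, Nfkbiz and Tnip2 did not pass (0.04 ± 0.23, 0.32 ± 0.12 and 0.37 ± 0.14). The adaptor gene Traf1 rose by 3.74 ± 0.12. Among subunits, Rel, Nfkb2 and Relb rose by 1.13 ± 0.18, 0.90 ± 0.11 and 0.49 ± 0.12, while Rela and Nfkb1 did not pass (0.22 ± 0.11 and -0.17 ± 0.16). Relb did not pass without mouse 4's untreated array (0.36). The deubiquitinase gene Cyld fell by 1.90 ± 0.13, and the kinase gene Ikbkb fell by 0.69 ± 0.12. The other probe of Cyld gave a change of 0.53.

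Receptors of the LPS pathway moved in both directions. Of 24 Toll-like receptor, co-receptor and adaptor genes 13 rose and 8 fell (median 0.42). Tlr4 itself went from 1.46 and 1.41 to 2.08 and 2.34, a rise of 0.78 ± 0.12, and Ly96, which encodes MD-2, rose by 1.21 ± 0.13. Cd14 fell by 1.16 ± 0.12 and Tlr2 fell by 1.19 ± 0.18, although at 3 h they had stood 2.92 and 3.68 above untreated. Cd180, a regulator of TLR4, rose by 3.27 ± 0.26, Tlr3 by 3.05 ± 0.11 and the nucleic acid sensor gene Tlr13 by 1.59 ± 0.09. Tlr5, the flagellin receptor gene, fell at least 5.47-fold to below background. Among kinases and brakes, Irak2 rose by 0.84 ± 0.12, Irak4 fell by 1.05 ± 0.14 and Sigirr fell by 1.55 ± 0.14.

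Of 31 cytokine and chemokine receptor genes 15 rose and 11 fell (median 0.05). Il12rb1, the shared subunit of the interleukin-12 and interleukin-23 receptors, had levels of -0.98 and -1.21 untreated and 4.27 and 4.33 at 24 h (5.39 ± 0.13), so that both genes of this receptor pair rose. Ccrl2 and Il1r1 rose by 3.32 ± 0.12 and 1.98 ± 0.21. With the probes used, Cx3cr1, the fractalkine receptor gene of resident macrophages, fell at least 16.7-fold to below background. The interleukin-33 receptor gene Il1rl1 fell at least 21.1-fold, also to below background. The other probes of Cx3cr1 and Il1rl1 gave smaller changes of -2.31 and -1.25. Cxcr4 fell by 3.58 ± 0.23. The receptor genes for the growth factor in the medium did not pass, with changes of 0.02 ± 0.11 for Csf2ra and 0.05 ± 0.18 for Csf2rb. Csf1r fell by 0.50 ± 0.10, and its 3 probes ran from -2.34 to -0.50. With levels divided by the spike-in slope Csf2ra fell (-0.34). Without mouse 3's untreated array the falls in this list numbered 7.

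G protein-coupled receptors for purines, lipids and formyl peptides rose in 16 of 27 cases and fell in 7 (median 1.00). The formyl peptide receptor genes Fpr2 and Fpr1, which detect bacterial peptides, rose by 7.12 ± 0.22 and 6.39 ± 0.22. Adora2a, the adenosine receptor that dampens inflammation, rose by 3.07 ± 0.14, Hcar2 by 3.29 ± 0.25 and P2ry14 by 2.25 ± 0.13. Gpr183, S1pr1 and P2rx7 fell, with changes of -2.73 ± 0.29, -2.14 ± 0.19 and -1.24 ± 0.14, beside Gpr34. The probes of P2rx7 ran from -1.75 to 0.45.

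Scavenger and C-type lectin receptor genes moved in both directions. Of 18 genes 6 rose and 10 fell (median -0.47, or -0.21 with bounds). Marco, Clec4e (Mincle) and Msr1 rose by 4.05 ± 0.24, 3.72 ± 0.16 and 3.36 ± 0.18, while the scavenger receptor gene Scarb2 fell by 0.42 ± 0.09. The mannose receptor gene Mrc1, a marker of resting and alternatively activated macrophages, had levels of 5.28 and 5.39 untreated and 2.18 and 2.52 at 24 h, and it fell by 2.99 ± 0.11. Clec10a, Stab1, Clec4n and Clec7a (Dectin-1) fell, with changes of -4.03 ± 0.26, -2.39 ± 0.10, -2.01 ± 0.28 and -1.56 ± 0.13. Clec4a2 fell by 0.89 ± 0.27 on 3 arrays, since the spot of mouse 3 at 24 h was an outlier, and with that spot kept its change was 0.73. Of 17 markers of alternative activation, a list that shares Mrc1 and Clec10a with this one, 6 rose and 6 fell, near the shares of all genes. Arg1 came up from below background, at least 1.83-fold, and Mgl2 rose by 1.62 ± 0.09.

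Interferon-stimulated genes rose almost without exception. Of 38 antiviral genes 36 rose and 0 fell, 35 of them at least 2-fold, with a median of 3.25. Of 16 interferon-inducible GTPase genes all 16 rose at least 2-fold, with a median of 4.04. Oasl1, an OAS-like gene, had levels of -0.31 and -0.04 untreated and 7.05 and 7.21 at 24 h (7.31 ± 0.12). Rsad2, the gene of the antiviral enzyme viperin, went from 0.56 and 0.93 to 7.40 and 7.51 (6.71 ± 0.16). In both genes the 24 h samples were high and close together, and far above both untreated samples. Isg15, a ubiquitin-like modifier, rose by 5.64 ± 0.16, and Cmpk2, Isg20, Ifit2 and Mx1 by 7.19 ± 0.15, 6.96 ± 0.14, 6.47 ± 0.18 and 6.11 ± 0.13. Ifi44 had untreated levels of 0.72 and -2.02 and rose by 5.88 ± 0.92. Ifitm1 and Ifitm2 did not pass (0.07 ± 0.35 and 0.10 ± 0.17).

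Among the GTPases, which attack the vacuoles of intracellular pathogens, Tgtp1 went from -5.02 and -5.06 to 1.19 and 0.66 (5.97 ± 0.19). Gbp6, Tgtp2, Gbp4 and Gbp2 rose by 5.81 ± 0.16, 5.80 ± 0.16, 5.78 ± 0.30 and 5.31 ± 0.18, and the smallest rise of the list was that of Gbp7 (2.34 ± 0.23). The promoters of Rsad2 and Tgtp1 are shown because each holds an ISRE core, which stood in these lists more often than in all windows. They are the 250 bases before the RefSeq start on the minus strand of GRCm38.p6, chr12:26456453-26456702 for Rsad2 and chr11:48992247-48992496 for Tgtp1. Capitals mark the ISRE core, at -120 to -111 in Rsad2 (on the reverse strand) and -77 to -68 in Tgtp1, and in Tgtp1 a gamma-activated site (TTCNNNGAA) at -88 to -80.
Rsad2: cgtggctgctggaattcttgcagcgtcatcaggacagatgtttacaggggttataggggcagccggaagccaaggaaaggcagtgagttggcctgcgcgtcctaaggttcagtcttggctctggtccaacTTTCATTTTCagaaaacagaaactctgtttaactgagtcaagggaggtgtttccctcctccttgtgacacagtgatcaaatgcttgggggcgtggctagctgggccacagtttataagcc
Tgtp1: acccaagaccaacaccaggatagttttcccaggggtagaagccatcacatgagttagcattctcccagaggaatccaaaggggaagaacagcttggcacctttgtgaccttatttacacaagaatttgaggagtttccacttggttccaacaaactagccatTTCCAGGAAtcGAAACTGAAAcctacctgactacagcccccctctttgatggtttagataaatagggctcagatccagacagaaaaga
An ISRE core was present in 44.4% of the windows of the antiviral list (29 genes) and 81.8% of the GTPase list (10 genes), against 3.44% of all windows and 3.27% of those of genes tested. It stood in 17.7% of the windows of genes that rose at least 16-fold (137 genes) and 7.97% of those that rose at least 2-fold. Among genes that fell at least 2-fold the share was 2.56%, and among the 56 that fell at least 16-fold it was 0%. The gamma-activated site was found in 54.5% of the windows of the GTPase list and 22.2% of those of the antiviral list, against 8.30% of all windows.

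Transcription factor genes of the interferon pathway moved in both directions. Of 25 IRF, STAT and SOCS genes 13 rose and 6 fell (median 0.91). Irf7, the factor that amplifies the interferon response, went from -0.89 and -0.52 to 5.84 and 5.39 (6.32 ± 0.20), and Stat2 rose by 3.17 ± 0.15. The feedback inhibitors Socs1 and Socs3 rose by 5.91 ± 0.10 and 2.74 ± 0.23. Irf3, which is activated by phosphorylation, had a change of -0.15 ± 0.12 that did not pass, nor did that of Irf8 (-0.23 ± 0.13). Cish, a STAT5 target, fell by 1.73 ± 0.13, Irf4 fell by 2.52 ± 0.21, Stat4 fell by 3.17 ± 0.20 and Stat5b fell by 0.63 ± 0.13. Falls in this list numbered 10 when arrays were scaled on the probes detected on all of them.

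Of 26 immediate early factor and MAP kinase phosphatase genes 11 rose and 5 fell (median 0.16). Dusp1, a phosphatase that ends p38 signalling, rose by 3.17 ± 0.11, Atf3 by 2.33 ± 0.14 and Zfp36, which destabilises cytokine transcripts, by 1.60 ± 0.16. Jun rose by 1.81 ± 0.23, while Egr1, Junb and Myc did not pass (0.05 ± 0.25, 0.28 ± 0.31 and -0.56 ± 0.39). Without mouse 3's 24 h array Junb fell (-0.34). Nr4a1 and Egr2 fell, with changes of -2.99 ± 0.21 and -2.46 ± 0.16. Fosl2 fell by 1.82 ± 0.20 with the probe used, but its probes disagree in direction.

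Of 23 acute-phase, S100 and antimicrobial genes 13 rose and 2 fell (median 0.86): beside Saa3 and Saa1, the siderophore-binding protein gene Lcn2 rose by 5.50 ± 0.17, Cp by 3.31 ± 0.30 and Slpi by 2.07 ± 0.16. S100a4 and the lysozyme gene Lyz2 fell, with changes of -1.66 ± 0.18 and -1.06 ± 0.12. Without mouse 4's 24 h array 4 of this list fell. Of 20 complement genes 8 rose and 3 fell, and 5 fell with mouse as a replicate block. C3, the central component, had levels of 1.61 and 1.11 untreated and 6.48 and 6.61 at 24 h (5.18 ± 0.17). The C1q genes C1qa, C1qb and C1qc did not pass (-0.25 ± 0.16, 0.18 ± 0.09 and 0.20 ± 0.09).

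Of 20 genes of nitric oxide, arginine and itaconate metabolism 10 rose and 4 fell (median 0.46). Nos2, the inducible nitric oxide synthase gene, went from -1.16 and -1.19 to 2.14 and 2.20 (3.35 ± 0.09), and Gch1, which supplies its cofactor, and Ass1, which recycles citrulline to arginine, rose by 2.77 ± 0.14 and 2.76 ± 0.20. The tricarboxylic acid cycle genes Idh1, Fh1 and Idh2 fell, with changes of -2.05 ± 0.16, -2.02 ± 0.13 and -1.52 ± 0.10. Cs and Sdha did not pass (0.03 ± 0.09 and -0.05 ± 0.08), and Sdhb rose by 1.01 ± 0.09.

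Among 17 prostaglandin, leukotriene and kynurenine genes 9 rose and 6 fell. Ptgs2, the inducible cyclooxygenase, rose at least 3.90-fold from below background, and Pla2g4a, which releases arachidonic acid, by 2.64 ± 0.21. The constitutive cyclooxygenase gene Ptgs1 went from 3.00 and 2.46 to -0.63 and -0.56, and it fell by 3.33 ± 0.21. Alox5, of leukotriene synthesis, fell at least 14.6-fold to below background. Of 20 matrix protease and inhibitor genes 6 rose and 6 fell, near the shares of all genes (26.0% and 31.5%). Mmp25 rose at least 51.8-fold, Mmp14 by 4.04 ± 0.22, Mmp13 by 3.01 ± 0.13 and Timp1 by 3.00 ± 0.19, while Mmp9 and Timp2 fell, with changes of -2.26 ± 0.28 and -1.51 ± 0.10. The other probe of Timp2 gave a change of 0.22.

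Antigen presentation rose on the class I side. Of 19 MHC class I and immunoproteasome genes 18 rose, 14 of them at least 2-fold, and 0 fell, with a median of 1.85. H2-T22, a class I gene, had levels of 1.55 and 1.66 untreated and 5.50 and 5.14 at 24 h (3.72 ± 0.12). The peptide transporter genes Tap1 and Tap2 rose by 2.63 ± 0.14 and 1.85 ± 0.09, the immunoproteasome genes Psmb8, Psmb9 and Psmb10 by 2.39 ± 0.36, 2.26 ± 0.09 and 1.97 ± 0.12, and Nlrc5, the transactivator of class I genes, by 2.22 ± 0.14. Calr alone did not pass (0.17 ± 0.11). Of 13 class II genes 6 rose and 0 fell (median 0.79), and 1 fell with mouse as a replicate block or without mouse 3's 24 h array. Cd74 and H2-DMa rose by 0.80 ± 0.30 and 0.79 ± 0.13, but H2-Ab1, H2-Aa and H2-Eb1 did not pass (1.01 ± 0.41, 0.94 ± 0.38 and 0.40 ± 0.40). The change of Cd74 did not pass without mouse 4's untreated array (0.43) or without either 24 h array (0.67 without mouse 3's and 0.94 without mouse 4's). Their untreated levels differed between the mice, with H2-Ab1 at 3.12 and 2.02, and were 3.63 and 3.52 at 24 h. The probes of Marchf1, which rose by 1.84 ± 0.25, disagree in direction.

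The promoter of H2-T22 is shown as the class I gene with the largest rise, 250 bases before the RefSeq start at chr17:36042743-36042992 (GRCm38.p6, minus strand). Capitals mark a kappaB site at -213 to -204 and an ISRE core on the reverse strand at -191 to -182.
H2-T22: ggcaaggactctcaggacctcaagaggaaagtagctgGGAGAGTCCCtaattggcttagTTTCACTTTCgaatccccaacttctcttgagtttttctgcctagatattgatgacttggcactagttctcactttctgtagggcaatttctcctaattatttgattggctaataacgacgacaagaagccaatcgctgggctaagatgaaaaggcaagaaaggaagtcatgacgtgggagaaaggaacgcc
In the class I list 38.9% of the windows held a kappaB site and 27.8% an ISRE core.

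Of 20 costimulatory and checkpoint ligand genes 14 rose and 5 fell (median 1.49). Cd274, which encodes PD-L1, went from 0.71 and 0.80 to 5.88 and 6.17 (5.26 ± 0.15), and Slamf9, Slamf8, Cd40 and Slamf7 rose by 5.50 ± 0.32, 4.60 ± 0.09, 3.90 ± 0.14 and 3.52 ± 0.11. The B7 genes split: Cd86 rose by 1.54 ± 0.20 and Cd80 fell by 1.77 ± 0.11. Cd83 fell by 1.92 ± 0.10. Of 26 inflammasome and cell death genes 16 rose and 4 fell (median 0.77). Mlkl, the effector of necroptosis, rose by 3.58 ± 0.11, the caspase genes Casp4 and Casp1 by 2.95 ± 0.11 and 2.48 ± 0.09, and Gsdmd, the pore-forming substrate of both, by 1.82 ± 0.09. Nlrp3 fell by 0.42 ± 0.13, and the BH3-only genes Bmf and Bbc3 fell, with changes of -3.67 ± 0.36 and -1.73 ± 0.15. Nlrp3 did not pass without mouse 4's untreated array (-0.35) or its 24 h array (-0.39).

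The list of mitotic genes had the lowest median of the 34 lists. Of 26 mitotic genes 24 fell, 23 of them at least 2-fold (against 13.3% of all genes), with a median of -3.01. Cdc20, the activator of the anaphase-promoting complex (probe at chr4:118105534-118105593, mm9), had levels of 3.23 and 3.66 untreated and -2.06 and -1.55 at 24 h, and it fell by 5.25 ± 0.23 (limma adjusted p = 6.3e-07). Kif20a, Ccnb2 and the kinase gene Plk1 fell, with changes of -4.88 ± 0.28, -4.45 ± 0.26 and -4.14 ± 0.28, and the proliferation marker Mki67 fell by 2.41 ± 0.20. Mouse 4 lay above mouse 3 in most of these genes both untreated and at 24 h, so the change was alike in both. Cenpa fell by 3.62 ± 0.10 on 3 arrays and Cenpf, above background on 1 of the 2 arrays at 24 h, did not pass (-1.83 ± 0.95). Tpx2 rose by 1.48 ± 0.18 as the only member to do so, and its rise did not pass with the mean over its probes.

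Of 27 DNA replication and nucleotide synthesis genes 9 rose and 0 fell, with a median of 0.52. With mouse as a replicate block 14 rose and 4 fell. The 0 falls of this list did not hold under other settings either, with 2 falls under normexp and 1 under quantile normalization. The falls numbered 2 without mouse 3's untreated array and 1 without mouse 4's 24 h array. Pcna, the sliding clamp of DNA polymerases, went from 4.01 and 4.70 to 6.13 and 6.39 (1.91 ± 0.23). The thymidylate synthase gene Tyms rose by 2.43 ± 0.13, the cyclin gene Ccne1 by 1.90 ± 0.35, the licensing gene Cdt1 by 1.46 ± 0.19 and the clamp loader gene Rfc3 by 0.99 ± 0.11. Rrm2 and Tk1 had changes of -0.98 ± 0.57 and -1.03 ± 0.45, which did not pass. Of the helicase genes, Mcm6 rose by 0.77 ± 0.26, and Mcm2, Mcm3, Mcm4, Mcm5 and Mcm7 did not pass (0.84 ± 0.44, 0.30 ± 0.34, 0.24 ± 0.20, 0.97 ± 0.47 and -0.22 ± 0.37). Mcm6 did not pass without mouse 3's untreated array (0.47) or mouse 4's 24 h array (0.58).

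The promoters of Cdc20 and Rfc3 are shown as an example of each list. They are the 250 bases before the RefSeq start on the minus strand of GRCm38.p6, chr4:118437344-118437593 for Cdc20 and chr5:151651209-151651458 for Rfc3. Capitals mark NF-Y boxes (CCAAT) at -53 to -49 and -8 to -4 and a cell cycle homology region (TTTGAA) at -18 to -13 in Cdc20, and an E2F site (searched as TTTCGCGC or TTTGGCGC) at -10 to -3 in Rfc3. Rfc3 also holds an NF-Y box on the reverse strand at -229 to -225, which is not in capitals.
Cdc20: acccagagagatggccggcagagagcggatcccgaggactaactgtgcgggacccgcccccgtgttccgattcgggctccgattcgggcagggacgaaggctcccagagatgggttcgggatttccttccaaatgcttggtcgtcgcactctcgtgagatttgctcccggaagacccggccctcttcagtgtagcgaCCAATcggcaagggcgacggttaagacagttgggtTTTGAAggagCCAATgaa
Rfc3: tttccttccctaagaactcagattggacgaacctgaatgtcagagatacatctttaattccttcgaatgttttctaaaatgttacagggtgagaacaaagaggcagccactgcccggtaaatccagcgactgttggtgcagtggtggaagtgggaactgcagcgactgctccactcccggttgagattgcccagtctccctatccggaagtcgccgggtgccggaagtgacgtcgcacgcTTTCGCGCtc
The cell cycle homology region stood in 17 of the 23 windows of the mitotic list (73.9%) and 3 of the 23 of the replication list, against 17.9% of all windows. The E2F site stood in 4.35% and 30.4%, against 0.813%, and the NF-Y box in 82.6% and 60.9%, against 37.4%.

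Sterol synthesis genes were lower at 24 h. Of 24 genes 15 fell, 11 of them at least 2-fold, and 1 rose (median -0.87). Fdft1, Cyp51, Sqle, Idi1 and the feedback gene Insig1 fell, with changes of -1.82 ± 0.21, -1.73 ± 0.18, -1.65 ± 0.20, -1.50 ± 0.19 and -1.33 ± 0.15. The other probe of Fdft1 gave a change of 0.51. Srebf2, which encodes the master regulator of the pathway, was the gene that rose (0.83 ± 0.09), and its other probe gave a change of -0.18. An NF-Y box was found in 84.2% of the windows of this list, against 37.4% of all windows. It was also frequent in other lists, with 73.9% in the unfolded protein list and 69.2% in the class II list. The sterol element (TCACNCCAC) was found in 5.26% of the windows of the sterol list, against 1.24% of all windows.

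Of 20 cholesterol efflux and LXR genes 6 rose and 7 fell (median -0.06), near the shares of all genes. Nr1h3, the LXR alpha gene, went from 0.92 and 0.96 to 4.73 and 4.77 (3.81 ± 0.09), and Ch25h, which makes an oxysterol, rose by 4.29 ± 0.33. The exporter genes moved apart: Abcg1 rose by 1.21 ± 0.15 and Abca1 fell by 1.53 ± 0.22. Scd1 fell at least 4.53-fold. Of 22 fatty acid oxidation and PPAR genes 7 rose and 12 fell (median -0.42). Fabp4 and Acsl1 rose by 2.60 ± 0.17 and 2.49 ± 0.13, and the oxidation genes Acadm and Acaa2 fell, with changes of -1.18 ± 0.09 and -0.93 ± 0.12.

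Of 28 glycolysis and hypoxia genes 13 rose and 8 fell (median 0.29). Pfkfb3, Hk3 and the glucose transporter gene Slc2a1 rose by 2.36 ± 0.21, 2.19 ± 0.21 and 1.34 ± 0.12, and Ldha by 0.72 ± 0.09. Ndrg1 and Aldoc fell, with changes of -3.46 ± 0.08 and -3.19 ± 0.13, and Hif1a did not pass (-0.21 ± 0.24). Of 30 respiratory chain genes 12 rose and 4 fell, with changes from -0.40 to 1.01. Counts in this list moved with the settings: with levels divided by the spike-in slope 4 rose and 7 fell, and with only the groups compared 7 rose and 0 fell. The falls numbered 7 without mouse 4's 24 h array and 2 without any 1 of the other 3 arrays. Of 24 genes of the unfolded protein and ATF4 response 8 rose and 8 fell, or 5 without mouse 4's untreated array. Ddit3 (CHOP), Trib3 and Atf4 rose by 3.32 ± 0.10, 3.08 ± 0.24 and 1.81 ± 0.11, while Herpud1 and the sensor kinase gene Eif2ak3 fell, with changes of -1.95 ± 0.13 and -1.68 ± 0.14. Of 26 NRF2 and oxidative stress genes 12 rose and 9 fell: Sod2 rose by 3.31 ± 0.10 and Hmox1 by 1.88 ± 0.12, and Nqo1 and Cat fell, with changes of -2.04 ± 0.20 and -1.79 ± 0.16.

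Metal handling genes were taken up because COMMD1 is known for copper export. Of 21 copper and metallothionein genes 9 rose and 5 fell (median 0.27). Atp7a, the copper exporter that the CCC complex sorts, had levels of 1.00 and 1.18 untreated and 2.36 and 2.42 at 24 h (1.31 ± 0.10). The importer gene Slc31a1 did not pass (0.18 ± 0.12), its relative Slc31a2 rose by 2.59 ± 0.11 and the cytochrome oxidase copper chaperone gene Sco1 by 2.41 ± 0.09. The metallothionein genes Mt1 and Mt2 fell, with changes of -1.73 ± 0.20 and -1.85 ± 0.28, and the superoxide dismutase gene Sod1 fell by 0.87 ± 0.10. Of 18 iron genes 8 rose and 6 fell. Slc40a1, the iron exporter ferroportin, had levels of 5.05 and 4.98 untreated and 1.85 and 2.34 at 24 h, and it fell by 2.93 ± 0.18. Trf fell by 2.29 ± 0.21, while the iron transporter genes Slc11a1 and Slc11a2 rose by 1.22 ± 0.08 and 1.13 ± 0.07.

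The partners of COMMD1 changed little. Of 22 COMMD, CCC and retriever genes 12 rose and 3 fell, with a median of 0.30, and 1 change reached 2-fold. That was Ccdc93, a CCC subunit, which went from -1.17 and -0.98 to 0.00 and 0.11 (1.13 ± 0.12). Ccdc22, the other coiled-coil subunit, fell by 0.94 ± 0.11. Among the COMMD genes Commd5, Commd2, Commd7, Commd9, Commd3 and Commd8 rose, by 0.67 ± 0.11 at most, and Commd4, Commd6 and Commd10 did not pass. With the mean over its probes the change of Commd8 was -0.06. The other probes of Commd7 and Commd8 gave changes of -0.43 and -0.39. Commd9 did not pass without mouse 4's untreated array (0.35). With levels divided by the spike-in slope, or with only the groups compared, 4 genes of this list rose. Of 28 lysosome genes 15 rose and 6 fell (median 0.30), led by Ctsc (1.98 ± 0.18) and Ctsk (1.85 ± 0.09), and with quantile normalization or the spike-in slope 8 rose.

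**Figure D3:**
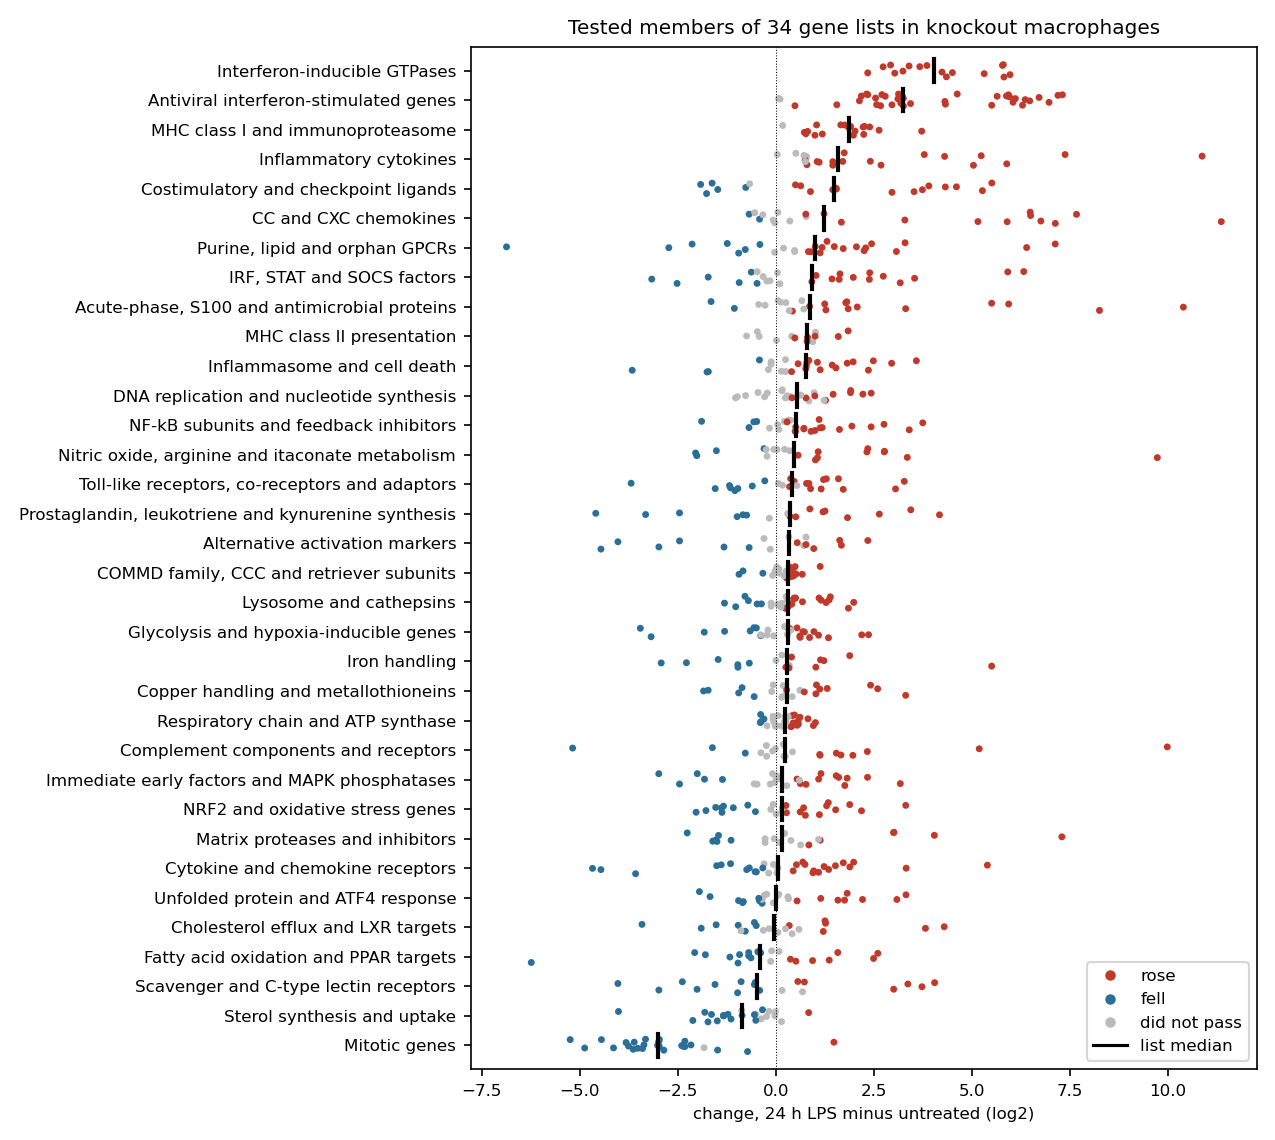
Change at 24 h (log2, horizontal axis) of every tested member of the 34 gene lists (1 point a gene), with the median of each list as a bar and a dotted line at 0. The median of all genes was -0.07. The mitotic list lies lowest with a median of -3.01, and the GTPase and antiviral lists lie highest with 4.04 and 3.25.

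Markers of the cultured cells and of other cells were read from 8 lists. Of 12 macrophage markers 7 rose and 3 fell, and their summed signal, in units of the array's 75th percentile, was 364 and 351 untreated and 447 and 465 at 24 h. Siglec1 rose by 3.08 ± 0.15 and Adgre1, a surface marker of mouse macrophages, by 0.40 ± 0.11, with all 12 markers above background. The 3 that fell were Csf1r, Cd14 and Lyz2, with the changes given above. With levels divided by the spike-in slope the change of Adgre1 was -0.08. Its change did not pass without mouse 4's untreated array (0.34) or its 24 h array (0.36). The summed signals were 67.1 and 57.1 against 67.6 and 64.3 for 10 dendritic cell markers, 22.3 and 22.9 against 21.9 and 24.6 for 10 neutrophil markers, and 8.65 and 8.19 against 9.44 and 8.02 for 8 T and NK cell markers. The sum of 9 B cell markers was 2.24 and 2.13 against 1.44 and 1.45. For 6 mast cell, basophil and eosinophil markers it was 0.749 and 0.917 against 1.35 and 1.51, at 24 h most of it from the chemokine receptor gene Ccr3. The sum of 6 erythroid and megakaryocyte markers, nearly all of it Pf4, went from 69.1 and 72.4 to 41.2 and 53.3. That of 12 stromal and osteoclast markers went from 7.97 and 5.87 to 36.8 and 37.5, through Acp5 (3.59 ± 0.23) and Ctsk, which macrophages also express. The collagen genes Col1a1, Col1a2 and Col3a1 did not pass (-0.56 ± 0.41, -0.18 ± 0.31 and -0.06 ± 0.46). The part of these markers in the results was not tested.

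The 24 h cultures were also compared with the 3 h cultures of the same knockout mice, to see which changes were early and which late. Of 22992 genes 6053 were higher at 24 h (26.3%) and 7493 lower (32.6%). This comparison shares the 24 h arrays with the main one. Of the cytokine genes 1 was higher at 24 h than at 3 h and 17 lower, and of the chemokine genes 2 and 12. Their medians relative to untreated cells were 4.55 and 5.14 at 3 h, against 1.58 and 1.22 at 24 h. Of the NF-kB list 1 was higher and 22 lower. Cxcl3 and Olr1 had levels of 1.41 and 1.44, and 3.00 and 2.65, at 3 h and were below background at 24 h, and the protease gene Adamts4 changed by -9.91 ± 0.16 between 3 h and 24 h and did not differ from its untreated level by a change that passed (-0.28 ± 0.16), though with normexp it rose (0.40). It was above background on 1 of the 2 arrays at 24 h. Il6 and Cish changed by -7.24 ± 0.20 and -7.12 ± 0.13 between 3 h and 24 h.

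Not all early genes came down. Cxcl9, Ifnb1, Ccl5, Ccl2, Ccl7 and Il1rn did not pass between 3 h and 24 h (0.84 ± 0.76, 0.35 ± 0.23, 0.22 ± 0.21, -0.01 ± 0.47, -0.09 ± 0.48 and -0.15 ± 0.26). Late rises included Ly6f, Il23r, Il12rb1 and Slfn4, higher at 24 h than at 3 h by 6.75 ± 0.27, 6.72 ± 0.20, 5.21 ± 0.13 and 4.68 ± 0.19. Ly6f and Il23r, below background in untreated cells, had changed by 0.96 and 2.70 at 3 h. The size of their late rise thus rests on dim 3 h signal. Ddit3 stood at -1.29 and -1.19 at 3 h and at 3.55 and 3.47 at 24 h. Of the antiviral list 17 were higher at 24 h and 7 lower, with Bst2, the tetherin gene, changing by 2.32 ± 0.10 from 3 h to 24 h and Mx2 by -1.21 ± 0.14. Of the class I list 16 were higher and 1 lower. The mitotic genes fell late: their median relative to untreated cells was -0.52 at 3 h, and 24 of 26 were lower at 24 h than at 3 h. Of the replication list 15 were higher at 24 h and 0 lower. Of the sterol list 1 was higher and 16 lower, as Cyp51 and Idi1 had stood 1.45 and 1.34 above untreated at 3 h.

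**Figure D4:**
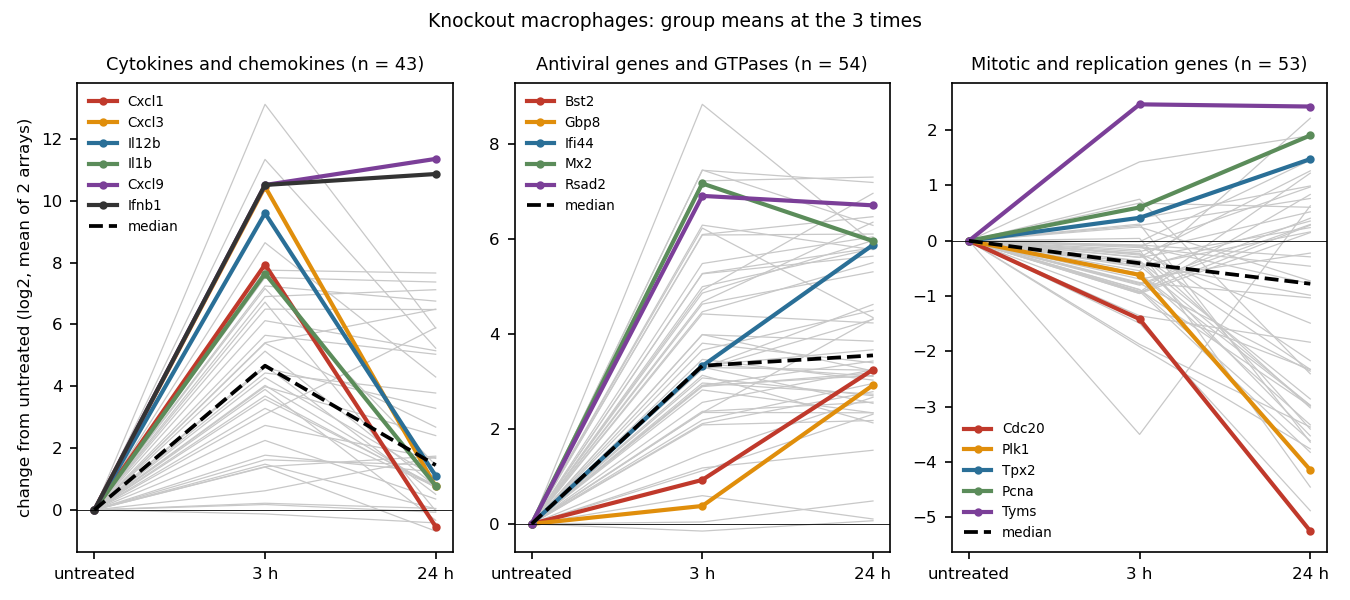
Change from untreated (log2, vertical axis) in knockout cells at untreated, 3 h and 24 h, each grey line 1 gene and the dashed line the median, with named genes in colour. The left panel holds 43 cytokine and chemokine genes, the middle panel 54 antiviral and GTPase genes and the right panel 53 mitotic and replication genes. Cytokines such as Cxcl3 peak at 3 h, while Cxcl9 and Ifnb1 stay high, and Cdc20 and Plk1 drop between 3 h and 24 h while Pcna rises and Tyms stays near its 3 h level.

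Whether the knockout answered LPS differently from wildtype was tested as the difference between the 24 h changes of the genotypes. On every slide wildtype lay at array positions 1 and 2 and knockout at 3 and 4, so genotype and position cannot be told apart. The spike-in slope in wildtype was 0.743 and 0.735 untreated and 0.824 and 0.820 at 24 h, below the knockout values given above. The test passed for 82 of 22990 genes (0.357%), 39 with a more positive change in the knockout and 43 with a more negative one. At an unadjusted p under 0.05 there were 3366. The count rested on single arrays: it was 4 without untreated knockout replicate 1, 241 and 196 without the 24 h knockout arrays of mouse 3 and mouse 4, and 15 to 40 when 1 of the wildtype untreated or 24 h arrays was left out. With mouse as a replicate block it was 154, and 60 of the 82 were among them with the same sign. Of 19 genes with the largest differences, each lost its call under at least 1 of the alternative settings run for it, and 7 could be run under all 20. With no filter on dim probes 0 genes passed, so that loss was fixed for all 19 and says nothing about any single gene. With mouse as a replicate block 15 of the 19 kept their call and 4 lost it.

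Il1b gave the largest difference of a gene measured in all groups. It had untreated levels of -0.17 and -1.39 in the knockout and -4.80 and -5.14 in wildtype, and 24 h levels of -0.27 and 0.28 against 0.46 and 0.54. The knockout was thus higher before LPS and the genotypes lay close after it, giving a difference of -4.69 ± 0.50 (limma adjusted p = 0.027). C3 showed the same order, with 1.61 and 1.11 untreated against -0.66 and -0.75 in wildtype and 6.48 and 6.61 at 24 h against 6.32 and 6.44 (difference -1.90 ± 0.24, limma adjusted p = 0.038). For Cxcl10 the untreated levels were 0.38 and 0.43 against -1.71 and -2.28 and the 24 h levels 7.13 and 7.19 against 6.58 and 6.52 (difference -1.79 ± 0.23, limma adjusted p = 0.038). Ier3, a stress response gene, and Cish had differences of -1.88 ± 0.28 and -1.65.

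The opposite order was seen for Cd200, whose product calms myeloid cells. It had untreated levels of -4.37 and -3.97 in the knockout and -1.64 and -1.62 in wildtype, and 24 h levels of 0.76 and 0.97 against 0.86 and 0.95 (difference 2.51 ± 0.23, limma adjusted p = 0.020). The homeobox gene Lhx2 reached 2.06 and 1.96 at 24 h in the knockout and 0.87 and 0.73 in wildtype, from untreated levels of -5.36 and -4.85 and -4.17 and -3.58 (difference 2.43 ± 0.38). Fabp4, Atf3, Pparg and Dusp1 had differences of 1.65, 1.36, 1.12 and 1.02. By list, 4 of 26 immediate early genes passed this test, and 2 each of 21 chemokine, 20 complement, 17 alternative activation and 22 fatty acid genes. It passed for 1 each of 22 cytokine, 25 IRF and 20 arginine genes. It passed for 0 of the antiviral, GTPase, NF-kB, mitotic, sterol, copper and COMMD lists. With 0.357% of all genes passing, a count of 0 shows nothing particular to a list. A difference that does not pass is not shown to be absent.

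**Figure D5:**
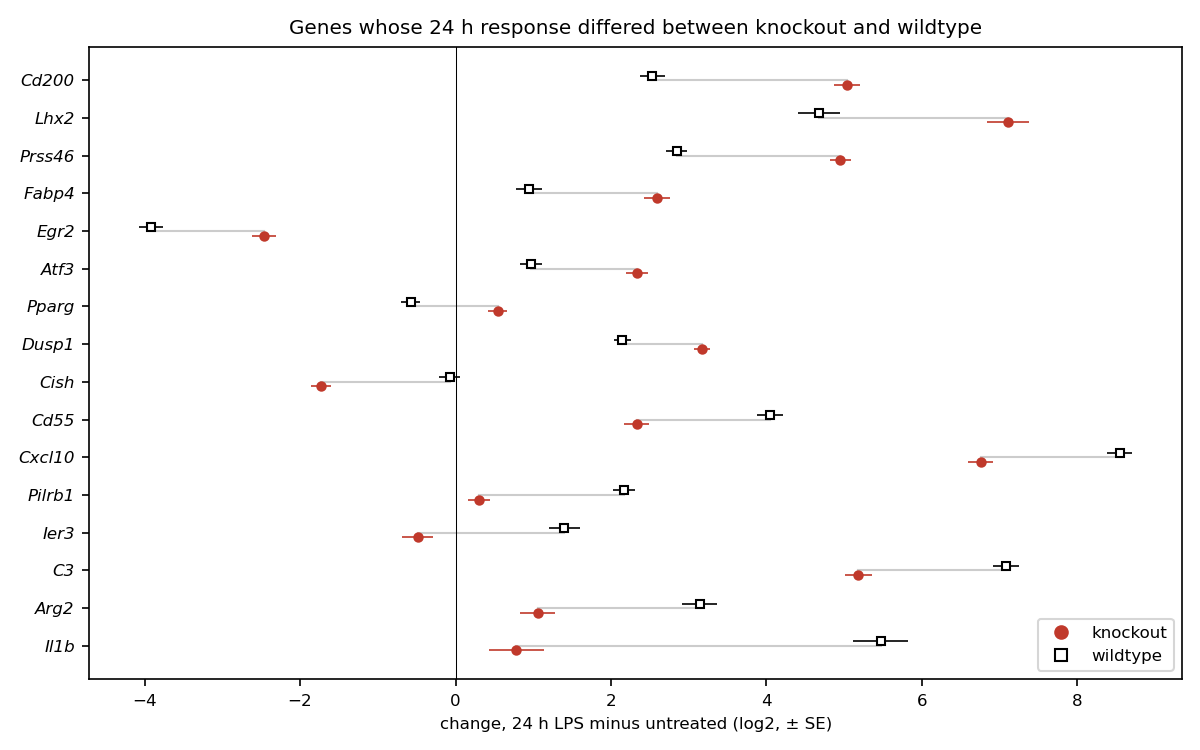
Change at 24 h (log2) in knockout and wildtype cells, with the SE of the fit as bars, for 16 genes whose difference between genotypes passed. Il1b changed by 0.78 in the knockout and 5.47 in wildtype, and Cd200 by 5.04 and 2.53.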

How the data were processed

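RNA of 12 cultures was hybridised to single-colour Agilent mouse arrays, read with Agilent Feature Extraction 10.7.3.1, per the file headers, which give probe positions on mm9. The deposited scanner files hold each spot's processed signal as an intensity, after the scanner software's background and detrending steps. The authors' deposited value table is on the log2 scale, with its scaling unstated. Over the probes well above background, 99.7% to 100.0% of its values lay within 0.05 of the log2 processed signal minus 1 constant per array. Its column medians were -4.32 and -4.41 for the untreated knockout and -4.33 and -4.50 at 24 h. The deposited flags are coded as other values and mark spots well above background and outlier spots, of which there were 589 on the 24 h array of mouse 3 and 132 to 214 on the others. No spot was saturated.

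Outlier and control spots were left out, spots of a probe were averaged, and log2 of the intensity was taken minus the array's 75th percentile. Probes were kept where 1 or more of the 6 groups had both arrays well above background (28446 of 39429), with the brightest probe for each of 22994 genes. Of 39429 probes, 26524 were named through a RefSeq accession, 3781 through a symbol and 716 through a synonym, and 8408 kept the file's own name. Group means were fitted to all 12 arrays with limma 3.58.1 in R 4.3.3 (eBayes, 6 residual degrees of freedom, Benjamini-Hochberg adjustment, threshold 0.05). The steps were tested on simulated data. Bounds set the mean of the brighter group against the lowest signal well above background on each array of the dimmer group. Promoter windows came from RefSeq.

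The number of arrays limits the precision: there are 2 mice per group. The labels say that each mouse's cells were divided between the times, which pairs the samples. Deviations of same-mouse arrays from their group means correlated at 0.355 (untreated and 3 h), 0.126 (untreated and 24 h) and 0.122 (3 h and 24 h) in the knockout, and at 0.193, 0.129 and 0.149 in wildtype, over 22656 genes.

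Named genes were Commd1, the 15 largest rises and falls that passed in both mice, members of the gene lists, and the 10 largest differences between genotypes in each direction, clone names left out, and a few genes these rules name are not reported here. The members and lists were chosen with earlier results of these data known. Alternatives covered the mouse as a block, the arrays fitted, scaling, background correction, probe filters, value source, probe averaging, outlier spots, the variance trend and each array left out.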

Additional observations from a re-analysis of the deposited data

Results flagged for a closer look

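For 19 genes the change at 24 h differed between the genotypes by the interaction test in limma (adjusted p under 0.05), and these are among the largest such differences, as knockout minus wildtype on the log2 scale. The difference was positive for Chsy3 (3.93), Ttll2 (3.21), Pla2g2c (2.84), Zim1 (2.80), Acot4 (2.66), Cd200 (2.51), Lhx2 (2.43), Slc6a19 (2.41) and Prss46 (2.11). It was negative for Vmn1r235 (-4.83), Il1b (-4.69), Adamdec1 (-4.01), Ppm1n (-3.93), Hpgd (-2.17), Arg2 (-2.08), Cxcl3 (-1.92), C3 (-1.90), Ier3 (-1.88) and Pilrb1 (-1.87). Chsy3, Pla2g2c, Acot4, Vmn1r235 and Cxcl3 were below background in both knockout groups, so their differences have no measured fold there. Ttll2, Zim1 and Slc6a19 were below background in untreated knockout cells, and Hpgd, Ppm1n and Adamdec1 in knockout cells at 24 h. The differences of these genes rest on signal below background too. Zim1 lacks 1 knockout array at 24 h and Adamdec1 lacks 1 untreated knockout array, since those spots were outliers.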

How the results depend on the processing

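The count of genes changed at 24 h in the knockout, 13228, ran from 10591 (only the 4 arrays compared) to 15960 (normexp background correction), and from 10967 to 12373 with 1 knockout array left out. Between 10282 and 12986 of these genes kept their call and direction. The count for the difference between genotypes, 82, was less stable. It was 154 with mouse as a replicate block, 2 with only the 8 arrays compared, 124 with quantile normalization, 128 scaled on probes detected on all arrays and 255 with normexp. It was 244 on only the probes detected on all arrays, 178 on the deposited value table, 278 in limma with an intensity trend, and 4 to 241 with 1 array left out. With no filter on dim probes limma called 0, with 3396 at an unadjusted p under 0.05. The replicate block moved no other count of all genes by over 1.5 times. In the lists it took DNA replication from 9 rising and 0 falling to 14 and 4, and the falling complement genes from 3 to 5 and MHC class II genes from 0 to 1.

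With only the 4 arrays compared the list counts that moved by over 1.5 times were the falls in the glycolysis (8 to 5), NF-kB (4 to 2), respiratory chain (4 to 0) and unfolded protein (8 to 4) lists and the rises in the COMMD (12 to 4), iron (8 to 5) and respiratory chain (12 to 7) lists. With the spike-in slope they were the falls in the acute-phase (2 to 4), complement (3 to 5), replication (0 to 1), class II (0 to 1) and respiratory chain (4 to 7) lists and the rises in the COMMD (12 to 4), lysosome (15 to 8) and respiratory chain (12 to 4) lists. With quantile normalization they were the falls in the acute-phase (2 to 4), replication (0 to 1), class II (0 to 1) and respiratory chain (4 to 8) lists and the rises in the lysosome (15 to 8) list. Scaled on probes detected on all arrays they were the falls in the acute-phase (2 to 4), replication (0 to 1), IRF (6 to 10), cell death (4 to 7) and class II (0 to 1) lists. With normexp they were the falls in the chemokine (2 to 1), replication (0 to 2) and class II (0 to 1) lists and the rises in the sterol (1 to 2) list. With the mean over probes they were the falls in the class II (0 to 1) list and the rises in the mitotic (1 to 0) list. With an intensity trend they were the falls in the replication (0 to 1) and class II (0 to 1) lists. On only the probes detected on all arrays they were the falls in the replication (0 to 1) and class II (0 to 1) lists. The counts that moved with 1 array left out stand with their lists.

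Of 248 named genes that passed, 229 kept direction and call under every setting run for them; 216 could be run under all 16, and 202 of these kept both. Direction changed for 3: Clec4a2 (0.73 on the deposited value table and with outlier spots kept), Adgre1 (-0.082 with the spike-in slope, a setting chosen after seeing the data) and Commd8 (-0.062 with the mean over probes), none of which passed in the new direction. Of 53 named genes that had not passed, 31 changed sign under some setting, and 6 of them passed in the new direction: Adamts4, Cxcl1 and Cxcl5 with normexp, Cxcl5 on the deposited value table, Csf2ra with the spike-in slope, Cxcl11 with that slope and with quantile normalization, and Junb without the 24 h knockout array of mouse 3. The values with changed sign on the deposited value table were Cxcl1 0.29 and Cxcl5 0.51. With the spike-in slope they were Adamts4 0.18, C1qb -0.20, C1qc -0.28, Calr -0.073, Col3a1 0.25, Commd4 -0.083, Cs -0.30, Csf2ra -0.34, Csf2rb -0.27, Cxcl11 -0.44, Cxcl2 0.36, Cxcl5 0.20, Ifitm2 -0.19, Rela -0.14 and Slc31a1 -0.066. With normexp they were Adamts4 0.40, Col3a1 0.23, Csf2ra -0.05, Cxcl1 0.34, Cxcl2 0.26 and Cxcl5 0.50. With quantile normalization they were C1qc -0.13, Calr -0.009, Col3a1 0.03, Commd4 -0.074, Cs -0.18, Csf2ra -0.13, Csf2rb -0.17, Cxcl11 -0.34, Cxcl2 0.08, Ifitm2 -0.085 and Il23a -0.17. Scaled on probes detected on all arrays they were Commd1 -0.057, Commd4 -0.066, Cs -0.10, Csf2ra -0.11, Csf2rb -0.086, Cxcl11 -0.086, Egr1 -0.086, Ifitm1 -0.067, Ifitm2 -0.03, Lif -0.10 and Nfkbid -0.092, and with the mean over probes Csf2rb -0.041 and Cxcl11 -0.23. With 1 knockout array left out the ranges were Adamts4 -0.57 to 0.017, Cenpf -3.73 to 0.06, Col1a2 -0.51 to 0.14, Col3a1 -0.54 to 0.41, Commd1 -0.17 to 0.33, Commd10 -0.14 to 0.099, Commd4 -0.045 to 0.18, Cs -0.053 to 0.11, Csf2ra -0.066 to 0.11, Csf2rb -0.21 to 0.31, Cxcl11 -0.012 to 0.11, Cxcl2 -0.41 to 0.35, Cxcl5 -0.75 to 0.08, Egr1 -0.30 to 0.39, H2-Eb1 -0.072 to 0.88, Hif1a -0.49 to 0.084, Ifitm1 -0.38 to 0.52, Ifitm2 -0.042 to 0.25, Junb -0.34 to 0.89, Lif -0.17 to 0.23, Mcm3 -0.038 to 0.63, Mcm7 -0.58 to 0.14, Nfkbid -0.10 to 0.19, Sdha -0.12 to 0.01. The difference between genotypes turned for Adamdec1 (0.79 with no filter) and Cxcl3 (0.003 on the deposited value table). The cause of these changes was not tested. With 2 mice a group, a change of a low gene near background is little resolved.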
